A study of Mus musculus with 24 samples.

Results

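The genes described here are 9 genes of B cells, plasma cells and the IgA system, taken as the rows of the deposited tables whose identifiers map to their symbols: Igha, Jchain, Mzb1, Pou2af1, Ighm, Cd79a, Cd79b, Ms4a1 and Pigr, 9 of 55487 genes. Each symbol matched 1 identifier, and all 9 genes passed the filter on low counts in every main fit. A stricter filter, used as an alternative, dropped Ms4a1 from the fit of tumours alone. RNA was sequenced from colon and colorectal tumours of C57BL/6 mice with Axin1 deleted in the intestinal epithelium (KO) and of wild-type (WT) mice. Axin1 is a scaffold of the beta-catenin destruction complex, which restrains Wnt signalling. For each genotype there were 4 groups: colon of untreated mice, colon taken on day 7 and on day 13 from mice given DSS (dextran sulfate sodium, which injures the colonic epithelium and causes colitis), and tumours of mice given DSS with the carcinogen azoxymethane (AOM). Each of these 8 groups held 3 libraries, described in the design as biological replicates. The sources used here give neither the driver of the deletion nor the age or sex of the mice. Whole tissue was sequenced, so the cells that the deletion does not reach, B cells and plasma cells among them, contribute to every library.

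The gut wall makes most of the body's IgA. Plasma cells of the lamina propria secrete it as dimers joined by the J chain, and the epithelial polymeric immunoglobulin receptor, encoded by Pigr, carries these dimers into the lumen. B cells that have not become plasma cells sit mostly in lymphoid follicles of the colon, carry IgM with the CD79 signalling pair on their surface, and lose CD20, encoded by Ms4a1, when they turn into plasma cells.

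Promoters are printed for 3 genes whose levels followed different courses over the colon libraries: Jchain, of secreted IgA; Cd79a, of the B cell receptor; and Pigr, of the epithelium. Each runs from 250 bases before to 50 bases after the RefSeq start in GRCm38.p6, on the gene's own strand, 5′ to 3′. Jchain lies at chr5:88527848-88528147 (minus strand), Cd79a at chr7:24897247-24897546 (plus strand) and Pigr at chr1:130826434-130826733 (plus strand).
Jchain: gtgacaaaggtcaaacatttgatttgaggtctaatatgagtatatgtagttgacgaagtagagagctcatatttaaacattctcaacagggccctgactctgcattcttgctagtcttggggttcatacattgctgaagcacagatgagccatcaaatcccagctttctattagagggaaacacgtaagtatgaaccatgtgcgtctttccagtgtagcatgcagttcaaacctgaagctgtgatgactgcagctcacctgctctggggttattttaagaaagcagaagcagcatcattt
Cd79a: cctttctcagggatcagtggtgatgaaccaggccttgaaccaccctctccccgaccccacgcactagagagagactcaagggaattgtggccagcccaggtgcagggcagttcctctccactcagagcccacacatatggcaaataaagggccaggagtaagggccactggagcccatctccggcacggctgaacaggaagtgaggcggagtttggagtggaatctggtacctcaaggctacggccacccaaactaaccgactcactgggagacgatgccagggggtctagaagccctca
Pigr: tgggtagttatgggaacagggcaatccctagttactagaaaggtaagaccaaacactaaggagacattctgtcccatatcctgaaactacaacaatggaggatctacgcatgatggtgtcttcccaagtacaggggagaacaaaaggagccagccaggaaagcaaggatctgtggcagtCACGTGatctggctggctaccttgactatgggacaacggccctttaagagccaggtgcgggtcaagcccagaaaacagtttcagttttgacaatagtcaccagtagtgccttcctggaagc
The promoter table held 4 of the 9 genes with a printable promoter, Pou2af1 being the fourth. They were searched on both strands for 3 motifs: the octamer ATGCAAAT, the E box CACGTG and the pair CCCNNGGG. The capitals in Pigr mark an E box CACGTG that begins 71 bases before the start and overlaps none of the other motifs. It was the only match among these 4 promoters. Over 32851 promoters of this length the E box was found in 7.15%, the octamer in 1.74% and CCCNNGGG in 13.7%.

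The libraries held 15.65 M to 28.07 M expected counts, of which the 9 genes took 0.123% to 0.634%. Axin1, which checks the genotype labels, had 4.98 to 9.93 TPM (transcripts scaled to gene length and library size) in the 12 KO libraries and 19.02 to 35.10 TPM in the 12 WT libraries, without overlap. The 10 epithelial markers summed to between 6549 and 15410 TPM in every library and none was at 0 in any group, as the tissue labels say. WT day 7 replicate 2 stood apart: it was the shallowest library, with the highest sum of smooth muscle markers (9274 TPM). Untreated KO replicate 3 stood apart too, by the chi-square per gene between the counts of replicates. Its values were 161.4 and 180.9 against untreated KO replicates 1 and 2, which stood at 14.74 against each other. It had the lowest Pigr (1091 TPM) and Ms4a1 (0.22 TPM) of the colon libraries. Every comparison with untreated KO colon includes it. Squamous markers summed to 4596 TPM in WT day 13 replicate 3 and 944 TPM in KO day 13 replicate 1, against at most 90.2 TPM in the other colon libraries. The Y-linked gene Ddx3y averaged 0.00667 ± 0.0115 TPM on day 13 in KO mice and 13.6 ± 1.46 TPM in WT mice (SD, n = 3 each), so sex cannot be told apart from genotype on that day. In untreated KO mice it averaged 12.7 ± 2.0 TPM, so sex also cannot be told apart from time between KO day 13 and untreated KO. The sample numbers in the library names repeat for 4 colon libraries: untreated KO replicate 2, untreated WT replicate 2, KO day 7 replicate 3 and WT day 7 replicate 2. The colon libraries may therefore come from more than 1 sequencing run, which the sources used here do not state. In whole tissue, fewer cells of a type and less RNA per cell cannot be told apart.

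Pigr and Igha were the most abundant of the 9 genes per length. Pigr had the highest TPM in 19 of 24 libraries and Igha in the other 5, and Igha was second in 19. Jchain ranked after them in 21 libraries and Ighm in 3. Ms4a1 was the seventh, eighth or ninth gene in every library. The genes differed in how much they varied: over the 18 colon libraries the highest Pigr level was 2.08 times the lowest (1091 to 2273 TPM), while that of Ms4a1 was 80.6 times the lowest (0.22 to 17.73 TPM).

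**Figure D1:**
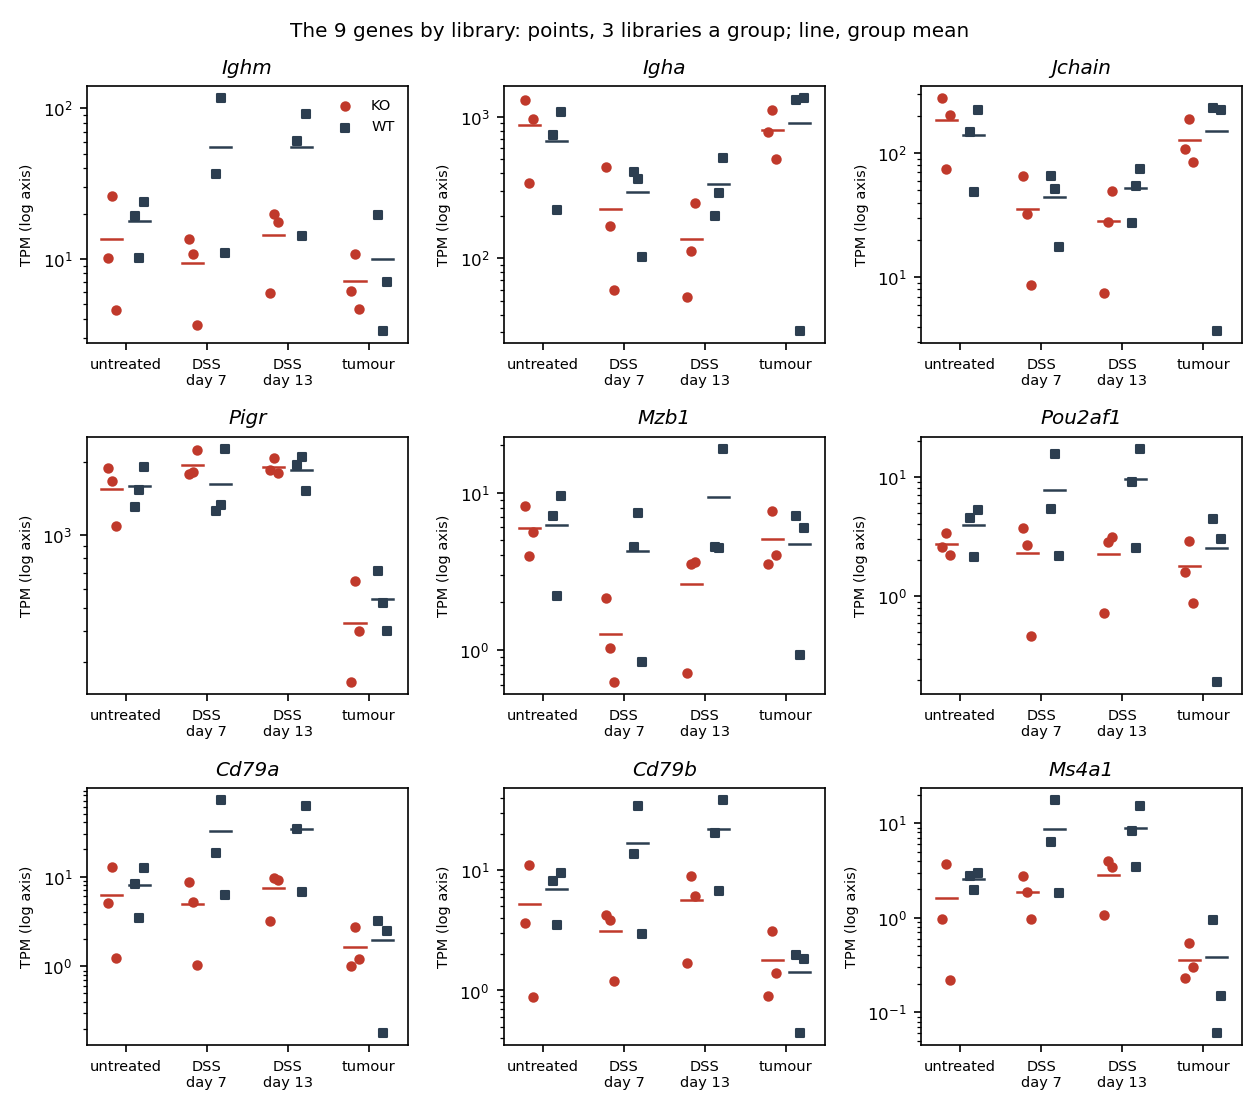
TPM on a log axis for each of the 9 genes in all 24 libraries, with groups along the horizontal axis, KO left of WT in each condition; points are libraries and lines are group means (n = 3). Pigr lay within 2.08-fold over the colon libraries at 1091 to 2273 TPM and had 246.2 to 711.5 TPM in tumours, while the highest levels of Ms4a1, Cd79a and Ighm were in the WT DSS groups, at 17.7, 71.6 and 117.9 TPM in WT day 7 replicate 2.

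Igha encodes the constant region of the IgA heavy chain, Jchain the protein that links IgA into dimers, and Mzb1 a chaperone of the endoplasmic reticulum that helps antibody assembly. In KO colon Igha had 1320.1, 339.6 and 973.2 TPM in untreated mice, 443.3, 170.3 and 60.1 TPM on day 7, and 53.3, 112.2 and 247.5 TPM on day 13. In WT colon it had 739.4, 220.1 and 1076.3 TPM in untreated mice, 408.6, 365.2 and 102.9 TPM on day 7, and 199.3, 291.5 and 509.9 TPM on day 13. KO day 13 lay wholly below untreated KO, whereas the other DSS groups overlapped with the untreated mice of their genotype. Jchain in KO colon had 279.6, 74.7 and 201.7 TPM in untreated mice, 65.7, 32.3 and 8.62 TPM on day 7, and 7.45, 27.8 and 49.8 TPM on day 13. In WT colon it had 147.2, 48.8 and 221.8 TPM in untreated mice, 65.2, 51.0 and 17.6 TPM on day 7, and 27.3, 54.0 and 75.1 TPM on day 13. All 6 KO DSS libraries were below all untreated KO libraries for Jchain, while the WT groups overlapped. Mzb1 in KO colon averaged 5.92 ± 2.14 TPM in untreated mice, 1.26 ± 0.783 TPM on day 7 and 2.61 ± 1.65 TPM on day 13 (SD, n = 3 each), and both DSS groups again lay wholly below the untreated one. Of 15333 genes with a mean of at least 1 CPM (counts scaled to library size), 12% lay wholly lower on day 7 in KO and 9.05% on day 13, against 2 and 3 of the 9 genes.

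None of the 9 genes passed in the DSS comparisons within KO mice. Log2 fold changes are given ± SE, with adjusted p from edgeR's quasi-likelihood F test with Benjamini-Hochberg adjustment over all genes of the fit. On day 7 against untreated KO colon, Igha was at -2.05 ± 0.78 (adjusted p = 0.102), Jchain at -2.46 ± 0.80 (adjusted p = 0.0563) and Mzb1 at -2.33 ± 0.80 (adjusted p = 0.0689). The count was 0 of 9 where 12.6% of all genes passed in either direction; 3 of 9 had an unadjusted p under 0.05, against 26.8% of all genes. DESeq2 called these 3 genes (adjusted p 0.0271, 0.00669 and 0.017), where it called 16.4% of all genes. On day 13 Igha was at -2.66 ± 0.80 and Jchain at -2.70 ± 0.81 (adjusted p = 0.41 for both), with 0 of 9 genes called against 0.0276% of all genes. There 2 of 9 had an unadjusted p under 0.05 (7.62% of all genes), and DESeq2 called Igha and Jchain (adjusted p 0.0345 and 0.0347; 0.611% of all genes). Without the 2 day 13 libraries rich in squamous markers Igha was at -2.29 and Jchain at -2.26 on day 13 (adjusted p = 0.937 for both), and with a covariate of Y-linked expression at -2.33 and -2.52 (adjusted p = 0.937 for both). The 2 comparisons share the untreated KO libraries.

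In WT mice Igha and Jchain also had lower estimates after DSS, Mzb1 lay on either side of 0, the B cell genes were above 0, and none passed. On day 7 against untreated WT colon Igha was at -1.25 (adjusted p = 0.27) and Jchain at -1.67 ± 0.78 (adjusted p = 0.15), and on day 13 at -1.02 and -1.42 (adjusted p = 0.463 and 0.299). Without untreated WT replicate 3 Igha was at -0.74 on day 7 and -0.51 on day 13, and Jchain at -1.15 and -0.89. Mzb1 was at -0.75 on day 7 (adjusted p = 0.51) and 0.50 on day 13 (adjusted p = 0.73). Of the B cell genes, Cd79a was at 1.89 on day 7 (adjusted p = 0.185) and 2.06 ± 0.96 on day 13 (0.221), Ms4a1 at 1.64 (0.181) and 1.80 ± 0.83 (0.215), and Ighm at 1.53 (0.201) and 1.65 (0.246). All 3 WT day 13 libraries were above all untreated WT libraries for Ms4a1, as 14% of the 15333 genes were wholly higher. Without WT day 7 replicate 2 the day 7 values were 0.69 for Cd79a, 0.74 for Ms4a1 and 0.48 for Ighm, and without the 4 libraries with repeated numbers 0.34, 0.59 and 0.21. Without the 2 libraries rich in squamous markers the day 13 values were 1.41 for Cd79a, 1.27 for Ms4a1 and 1.16 for Ighm, with -1.40 for Igha, -1.71 for Jchain and -0.43 for Mzb1. Of the 9 genes 0 passed on day 7 by edgeR (16.3% of all genes) or DESeq2 (21.2%), with 1, Jchain, at an unadjusted p under 0.05 (32.7%). On day 13 0 passed by edgeR (4.24% of all genes) or DESeq2 (9.88%), with 2, Ms4a1 and Cd79a, both higher, at an unadjusted p under 0.05 (22.4%). Between day 13 and day 7, 0 of 9 passed in KO (12.8% of all genes) and 0 in WT (0.0608%), with none at an unadjusted p under 0.05 in either genotype (25.9% and 16.9% of all genes) and none by DESeq2 (17.3% and 4.34%). With the covariate of Y-linked expression, edgeR called 0 of all genes between WT day 13 and day 7 instead of 11. Pigr went there from 0.20 ± 0.27 to 0.55 ± 0.39. That fit adjusts for Y-linked expression, and the part of sex in this comparison was itself not tested. The test of the difference between the genotypes in the response to DSS called 0 of 9 genes for day 7 (0% of all genes) and 0 for day 13 (0.011%), with none at an unadjusted p under 0.05 (13.7% and 13.5% of all genes) and none by DESeq2 (1.96% and 2.99%). For the change between day 7 and day 13 it also called 0 of 9 (0% of all genes by edgeR, 1.67% by DESeq2), with none at an unadjusted p under 0.05 (11.7%). For Igha the KO response minus the WT response was -1.64 on day 13, and -0.89 without the 2 libraries rich in squamous markers. The plasma cell list of other genes had 1 of 19 tested genes lower on day 7 in KO, Tnfrsf17, which encodes the survival receptor BCMA (-2.80 ± 0.83, adjusted p = 0.0387), where 4.07% of all genes fell. This count was near the share of all genes. The median of the list was -1.12, against -0.04 over all genes.

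Ms4a1 encodes CD20, Cd79a and Cd79b the signalling chains of the B cell receptor, Ighm the IgM heavy chain, and Pou2af1 the B cell coactivator of octamer-binding factors. Ms4a1 had 0.97, 3.67 and 0.22 TPM in untreated KO colon, against 2.76, 1.99 and 2.98 TPM in untreated WT colon. On day 7 it had 2.75, 1.88 and 0.97 TPM in KO colon, against 6.30, 17.7 and 1.84 TPM in WT colon. On day 13 it had 1.07, 3.95 and 3.44 TPM in KO colon, against 8.36, 3.42 and 15.2 TPM in WT colon. The genotypes overlapped in all 3 conditions, and the high values were in WT day 7 replicate 2 and WT day 13 replicates 1 and 3. Ighm had 13.6, 10.8 and 3.66 TPM in KO and 36.5, 117.9 and 10.99 TPM in WT colon on day 7, where only the lowest WT library lay within the KO range. On day 13 Ighm had 5.96, 19.8 and 17.6 TPM in KO, against 60.8, 14.2 and 92.0 TPM in WT colon. The same libraries were high for Cd79a, which reached 71.6 TPM in WT day 7 replicate 2 and 60.9 TPM in WT day 13 replicate 3, against at most 12.6 TPM in any KO colon library.

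None of these differences between KO and WT colon passed. On day 7 the log2 difference was -2.42 ± 0.84 for Ighm (adjusted p = 0.0924), -2.53 ± 0.99 for Cd79a (0.122), -2.31 ± 0.91 for Cd79b (0.127), -2.06 ± 0.84 for Ms4a1 (0.136) and -1.80 ± 0.81 for Pou2af1 (0.171). The count was 0 of 9, where 0.00552% of all genes passed, and 5 of 9 had an unadjusted p under 0.05, where 27% of all genes did. DESeq2 called Ighm (adjusted p = 0.0188) and Cd79b (0.0429), 2 of 9 genes, where it called 14.4% of all genes. Without WT day 7 replicate 2 the edgeR differences were -1.36 for Ighm, -1.33 for Cd79a, -1.46 for Cd79b, -1.15 for Ms4a1 and -0.86 for Pou2af1. Without the 4 colon libraries whose sample numbers repeat, which include that library, Ighm was at -0.98, Cd79a at -0.84 and Ms4a1 at -0.84. Summed markers of other cells are given beside these values, with no test. The 13 T cell markers summed to 15.99 to 21.11 TPM in KO and 31.96 to 93.28 TPM in WT colon on day 7, the 12 myeloid markers to 97.28 to 150.8 TPM in KO and 276.7 to 969.1 TPM in WT, and the 8 smooth muscle markers to 2748 to 3217 TPM in KO and 2744 to 9274 TPM in WT. The T cell and myeloid sums did not overlap between the genotypes, the smooth muscle sums did, and the highest smooth muscle sum was that of WT day 7 replicate 2. No marker of these lists was at 0 in a whole group, and their part in the B cell values was not tested.

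On day 13 the same genes stood at -1.84 ± 0.81 for Ighm (adjusted p = 0.246), -2.06 ± 0.96 for Cd79a (0.272), -1.55 ± 0.82 for Ms4a1 (0.339) and -2.10 ± 0.81 for Pou2af1 (0.185), with Mzb1 at -1.77 ± 0.76 (0.228). The count was 0 of 9, against 2.51% of all genes, and 4 of 9 had an unadjusted p under 0.05, against 18.2% of all genes. DESeq2 called none, against 7.19% of all genes. Without the 2 libraries rich in squamous markers, chosen after their values were known, Ighm was at -0.99, Cd79a at -1.06, Ms4a1 at -0.65, Pou2af1 at -1.02 and Mzb1 at -0.43. The T cell markers summed to 22.52 to 32.47 TPM in KO and 30.91 to 91.99 TPM in WT over all 6 day 13 libraries, and the myeloid markers to 74.12 to 104.2 TPM in KO and 276.2 to 1547 TPM in WT. The smooth muscle markers summed to 2352 to 3572 TPM in KO and 1354 to 2942 TPM in WT on day 13. In untreated colon they summed to 2268 to 2807 TPM in KO and 4221 to 6140 TPM in WT, without overlap. The part of these other cells was not tested. For the 9 genes the differences in untreated colon were small beside their errors, from -0.59 ± 0.82 for Ms4a1 to 0.53 ± 0.76 for Jchain. There 0 of 9 passed by edgeR or DESeq2, with none at an unadjusted p under 0.05; of all genes 0.011% passed by edgeR, 0.327% by DESeq2 and 6.53% at the unadjusted p.

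Averaged over the 3 colon conditions, 8 of the 9 genes were below 0 in KO relative to WT and none passed, where 4.84% of all genes did. Ighm was at -1.52 ± 0.47 (adjusted p = 0.0676), Pou2af1 at -1.39 ± 0.46 (0.0835), Ms4a1 at -1.40 ± 0.48 (0.089), Cd79a at -1.62 ± 0.55 (0.0891), Cd79b at -1.50 ± 0.51 (0.09) and Mzb1 at -1.09 ± 0.44 (0.138). These 6 had an unadjusted p under 0.05 (25.5% of all genes), and DESeq2 called the first 5 of them (13.9% of all genes). Without the 2 libraries rich in squamous markers Ighm was at -1.24, Cd79a at -1.29, Ms4a1 at -1.10, Pou2af1 at -1.03 and Mzb1 at -0.64, and without WT day 7 replicate 2 Ighm was at -1.17, Cd79a at -1.22 and Mzb1 at -0.95. Igha (-0.32 ± 0.43, adjusted p = 0.683), Jchain (-0.16, adjusted p = 0.854) and Pigr (0.18 ± 0.16, adjusted p = 0.508) lay nearer to 0, with Jchain at 0.09 without the 2 libraries rich in squamous markers. The list of other B cell genes had all 17 tested members below 0, with a median of -1.55 against 0.02 over all genes, and 2 of them fell, where 3.88% of all genes did: Cd72, an inhibitory coreceptor (-1.19 ± 0.31, adjusted p = 0.0418), and Ebf1, a transcription factor of early B cells that other cells of the gut wall also use (-1.23 ± 0.32, adjusted p = 0.0426). Of the 14 tested germinal centre and follicle genes Cxcl13, the chemokine that draws B cells into follicles, fell by 1.97 ± 0.42 on the log2 scale (adjusted p = 0.022), and Madcam1, a vascular address of gut lymphoid tissue, also fell (adjusted p = 0.0346). Cxcl13 averaged 5.14 ± 0.572 TPM in KO and 37.2 ± 36.4 TPM in WT colon on day 7, and 8.57 ± 4.73 TPM in KO and 53.0 ± 46.0 TPM in WT colon on day 13. In the list of IgA induction, homing and survival 4 of 14 tested genes fell, among them Tnfsf13b, which encodes the B cell survival factor BAFF (-0.89, adjusted p = 0.0286), and Cd40, the receptor for T cell help (-1.58, adjusted p = 0.0305). Of the 12 myeloid markers 10 fell and of the 13 T cell markers 1, Cd4 (-0.91, adjusted p = 0.0399), in the same comparison.

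**Figure D2:**
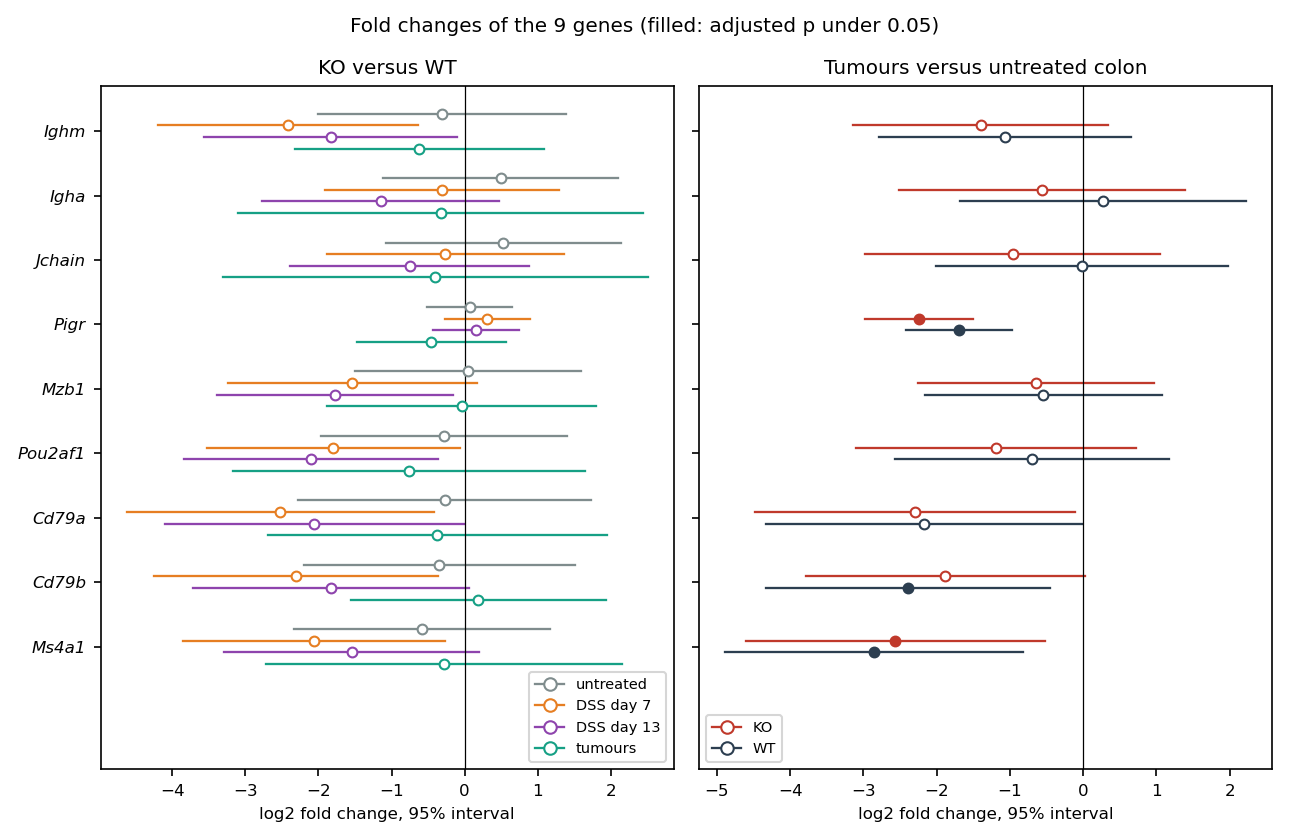
Log2 fold changes with 95% confidence intervals from the edgeR fits for the 9 genes (filled points passed at an adjusted p under 0.05), KO over WT in the left panel and AOM/DSS tumours over untreated colon in the right panel. In the left panel no gene passed in any condition, and on the right Pigr and Ms4a1 lay below 0 in both genotypes, with Pigr at -2.24 in KO and -1.70 in WT.

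Over the 18 colon libraries the 9 genes did not move as 1 group. The level of Igha, as log2 CPM, followed Jchain with a Pearson r of 0.98 and Mzb1 with an r of 0.81, but not Ms4a1 (r = -0.05) and hardly Cd79a (r = 0.19) or Ighm (r = 0.21). The genes outside the 9 most like Igha were Igkc, the kappa light chain constant region (r = 0.995), and the variable segments Igkv10-96 (r = 0.919), Iglv1 (r = 0.907), Ighv1-26 and Ighv1-72 (r = 0.899 for both). Ms4a1 followed Cd79b (r = 0.945), Cd79a (r = 0.936) and Ighm (r = 0.933), and among the genes outside the 9 most like it were the B cell surface genes Siglecg (r = 0.986), Cd22 (r = 0.98) and Cr2 (r = 0.979) and the B cell transcription factor gene Pax5 (r = 0.983). Pou2af1 had an r of 0.50 with Igha and 0.77 with Ms4a1; without the 2 libraries farthest from the median of each these were 0.11 and 0.87. The points share depth, scaling and groups. With each gene centred on its group means, r was 0.98 for Igha with Jchain, 0.93 for Ms4a1 with Cd79a, and 0.26 for Igha with Ms4a1. The 2 libraries farthest from the median of Igha set part of the weak values: without them r was 0.974 for Igha with Jchain, -0.365 with Ms4a1 and -0.178 with Cd79a. Without the 2 farthest from the median of Ms4a1, r of Igha with Ms4a1 was 0.22.

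**Figure D3:**
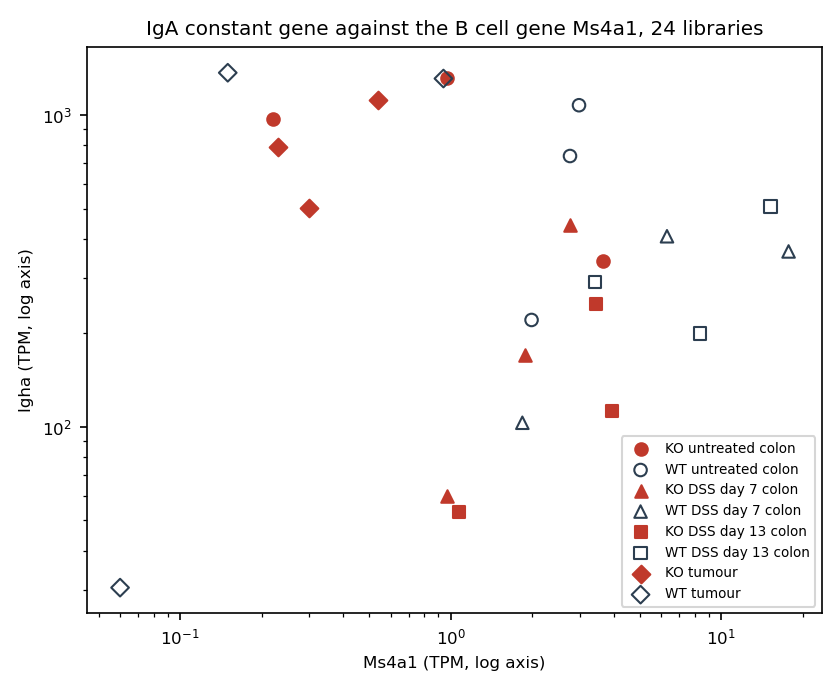
Igha TPM (vertical) against Ms4a1 TPM (horizontal), both on log axes, 1 point per library; filled red symbols are KO and open symbols WT, and the shape gives the condition. The 18 colon libraries form no line (r = -0.05), and the 6 tumours lie at 0.06 to 0.94 TPM of Ms4a1, with Igha from 30.43 to 1368 TPM.

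The make-up of the antibody genes was read from the share of Igha in the summed TPM of the 8 heavy constant-region genes Igha, Ighm, Ighd, Ighg1, Ighg2b, Ighg2c, Ighg3 and Ighe; reads of the similar IgG genes may have been split between them. Igha held 93.1%, 89.9% and 90.5% in KO and 85.5%, 61.3% and 83.1% in WT colon on day 7, without overlap. The mean shares were 91.2% ± 1.65 in KO and 76.6% ± 13.4 in WT (SD, n = 3 each; exact two-sided permutation p = 0.1, the smallest that 3 against 3 libraries allow). WT day 7 replicate 2 gave the lowest share, with 19.8% Ighm and 17% Ighd, the IgD gene of B cells that have not switched; without it the difference between KO and WT was 6.88 percentage points instead of 14.6. On day 13 the shares were 84.4%, 73.6% and 89.0% in KO and 64.0%, 91.8% and 73.4% in WT colon and overlapped (exact two-sided permutation p = 0.6). The day 13 difference was 5.95 percentage points, 4.93 without KO replicate 1, 4.46 without WT replicate 3 and -0.25 without WT replicate 1. In untreated colon they averaged 93.7% ± 7.04 in KO and 93.5% ± 1.90 in WT (n = 3 each, exact two-sided permutation p = 1), and in tumours 97.3% ± 0.98 in KO and 92.9% ± 5.13 in WT (n = 3 each, exact two-sided permutation p = 0.3).

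**Figure D4:**
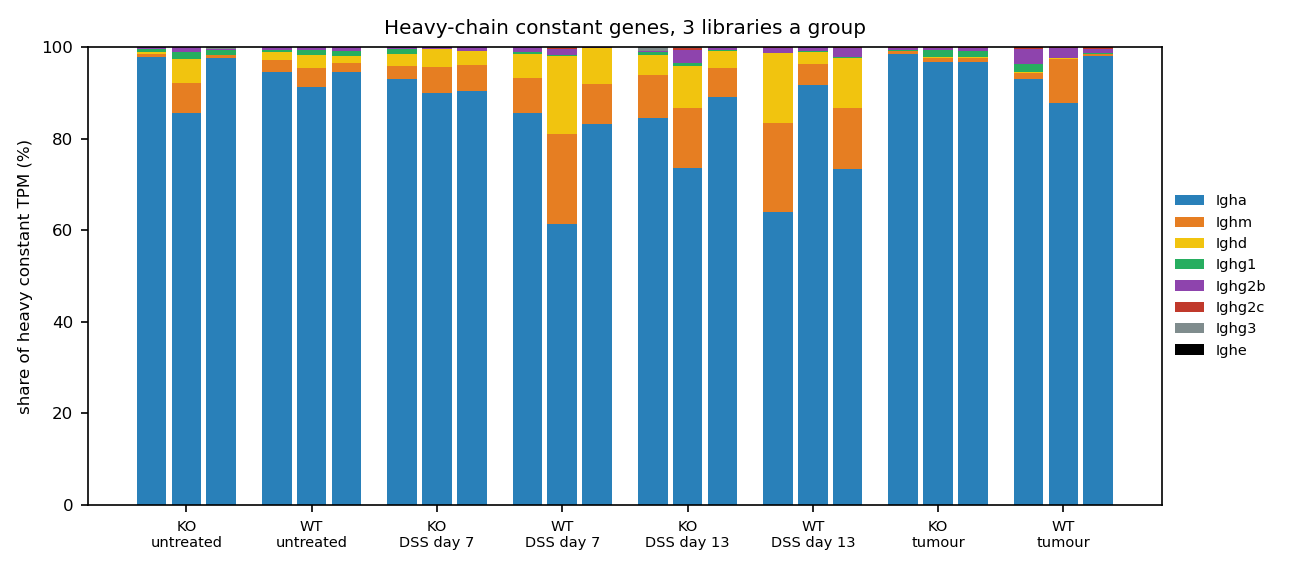
Share of each heavy constant-region gene in the summed TPM of the 8 genes, in percent, 1 bar per library, with KO left of WT in each condition. Igha took 61.3% to 98.4% of the sum in every library, and the Ighm and Ighd shares were largest in WT day 7 replicate 2, at 19.8% and 17%.

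The number of variable segments with at least 10 counts moved with Igha. Of 185 Ighv segments, KO colon had a median of 49 in untreated mice, 11 on day 7 and 1 on day 13, and WT colon had 42, 13 and 14. Tumours had medians of 46 in KO and 51 in WT, with 1 segment in WT tumour replicate 2, the library with the lowest Igha (30.43 TPM). The number of segments past a fixed count depends on the antibody RNA in the library as well as on the number of clones, and reads of related segments can be split between them.

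Tumours were compared with untreated colon of the same genotype, which differs from them in tissue, agents and time. Igha did not pass in either genotype: its level was 788.5, 1115.9 and 502.2 TPM in KO tumours, against 1320.1, 339.6 and 973.2 TPM in untreated KO colon (-0.56 ± 0.93, adjusted p = 0.64). It was 1311.0, 30.4 and 1368.4 TPM in WT tumours, against 739.4, 220.1 and 1076.3 TPM in untreated WT colon (0.27 ± 0.93, adjusted p = 0.828). WT tumour replicate 2 lay far below the other tumours for Igha, and for Jchain too (3.67 TPM, against 229.2 and 223.3 TPM in the other 2 WT tumours). Jchain was at -0.96 in KO (adjusted p = 0.423) and -0.01 ± 0.95 in WT (adjusted p = 0.994). Without WT tumour replicate 2 the WT values were 0.84 for Igha and 0.56 for Jchain. The plasma cell list held calls in both directions. Prdm1, the transcription factor gene of plasma cells that T cells and epithelium also express, rose in KO (1.65 ± 0.37, adjusted p = 0.00124) and in WT tumours (2.12 ± 0.38, adjusted p = 0.00016), among 2 higher and 2 lower of 20 tested genes in KO and 6 higher and 1 lower of 20 in WT. Of all genes 26.4% rose and 23.5% fell in KO, and 27.6% rose and 21.2% fell in WT tumours. The KO counts and the WT count of lower genes were below these shares, and the WT count of higher genes was near its share.

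Among the B cell genes, Ms4a1 passed as lower in tumours of both genotypes and Cd79b in WT tumours, each call being lost in some settings. Ms4a1 had 0.23, 0.54 and 0.30 TPM in KO tumours, against 0.97, 3.67 and 0.22 TPM in untreated KO colon. It had 0.94, 0.06 and 0.15 TPM in WT tumours, against 2.76, 1.99 and 2.98 TPM in untreated WT colon. The groups overlapped through untreated KO replicate 3 and did not overlap in WT. Of the 9 genes, 1 lay wholly lower in KO tumours than in untreated KO colon, against 14.2% of the 15333 genes. It was Pigr, of the epithelium, and all the B cell genes overlapped in KO. In WT tumours 4 of 9 lay wholly lower, against 20.9%: Pigr, Cd79a, Cd79b and Ms4a1. Ms4a1 fell in both genotypes, by 2.56 ± 0.98 on the log2 scale in KO (adjusted p = 0.0359) and by 2.85 ± 0.97 in WT (adjusted p = 0.0206). Without untreated KO replicate 2 the KO value was -1.13 (adjusted p = 0.36), and the WT call was lost without WT tumour replicate 2 (-2.34, adjusted p = 0.0805) or replicate 3 (-2.47, adjusted p = 0.0834), while without replicate 1 the value was -4.71. Cd79b fell in WT tumours (-2.39 ± 0.92, adjusted p = 0.0389) and was at -1.88 ± 0.91 in KO (adjusted p = 0.0935). The WT call of Cd79b was lost without any 1 of the 3 WT tumours (adjusted p = 0.0528, 0.136 and 0.073 without replicates 1, 2 and 3), without untreated WT replicate 1 or 3, or without the filter on low counts (0.0687). Cd79a was at -2.30 ± 1.05 in KO (adjusted p = 0.0755) and -2.18 ± 1.03 in WT (adjusted p = 0.0877). With Pigr included, 2 of 9 genes fell in KO, where 23.5% of all genes fell, and 3 of 9 in WT, where 21.2% did. None rose. The KO count was near its share, and each count includes the epithelial gene Pigr. Neither count is therefore read as a result about the B cell genes. DESeq2 called 3 of 9 in KO (27.6% of all genes) and 4 of 9 in WT (44.1%), both times adding Cd79a. Ighm did not pass (-1.40 in KO, adjusted p = 0.172, and -1.06 in WT, adjusted p = 0.297), nor did Pou2af1 (-1.19 and -0.69) or Mzb1 (-0.64 and -0.54).

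Of 17 other B cell genes tested, 7 fell in KO tumours and 6 in WT tumours, and none rose, with medians of -2.12 and -2.23; 23.5% of all genes fell in KO and 21.2% in WT. Spib, a transcription factor gene of B cells, fell by 3.55 ± 0.80 in KO (adjusted p = 0.00131) and by 2.87 ± 0.76 in WT (adjusted p = 0.00449) on the log2 scale. None of the T cell and myeloid markers fell: 3 of 13 T cell markers rose in KO and 11 of 13 in WT tumours, and 11 of 12 myeloid markers rose in KO and 12 of 12 in WT, where 26.4% and 27.6% of all genes rose. The 8 smooth muscle markers all fell in both genotypes and summed to 124.9 to 259 TPM in tumours, against 2268 to 6140 TPM in untreated colon. The part of the tissue composition in the B cell values was not tested.

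KO tumours did not differ detectably from WT tumours in the 9 genes. The differences lay between -0.76 for Pou2af1 and 0.19 for Cd79b; that of Igha was -0.33 ± 1.14 (adjusted p = 0.983). Without WT tumour replicate 2 it was -0.89 and that of Jchain -0.97 (adjusted p = 0.851 for both), and without WT tumour replicate 1 that of Igha was 0.08. By edgeR 0 of 9 passed (0% of all genes), with none at an unadjusted p under 0.05 (3.79% of all genes) and none by DESeq2 (0.0761%). The test of the difference between the genotypes in the contrast of tumours with untreated colon also called 0 of 9 (0% of all genes), with none at an unadjusted p under 0.05 (8.67%) and none by DESeq2 (0.5%). That difference was -0.84 for Igha and -0.95 for Jchain, and -1.41 and -1.52 without WT tumour replicate 2. With 3 libraries a group and the spread seen for Igha, differences of this size were not detectable.

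Pigr is made by epithelial cells, not by B cells. It had 1889, 1677 and 1091 TPM in KO and 1311, 1538 and 1912 TPM in WT untreated colon. On day 7 it averaged 1947 ± 254 TPM in KO and 1620 ± 567 TPM in WT colon, and on day 13 1914 ± 151 TPM in KO and 1854 ± 298 TPM in WT colon (SD, n = 3 each). The colon groups overlapped, and no colon comparison passed: the differences of KO from WT were 0.07 ± 0.27 in untreated mice, 0.31 ± 0.27 on day 7 (adjusted p = 0.483) and 0.16 on day 13 (adjusted p = 0.817). Its log2 level was inversely related to that of Igha over the 18 colon libraries (r = -0.56, and -0.45 with groups centred), as a description. The genes most like Pigr were Derl1, of the degradation pathway of the endoplasmic reticulum (r = 0.868), Slc35a2, a UDP-galactose transporter of the Golgi (r = 0.845), Plekha6 (r = 0.842), Brms1 (r = 0.829) and Mavs (r = 0.815).

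In tumours Pigr had 246.2, 647.1 and 399.7 TPM in KO and 711.5, 524.5 and 400.2 TPM in WT, all below every untreated colon library. Of the 15333 genes, 14.2% lay wholly lower in KO tumours and 20.9% in WT tumours than in untreated colon of their genotype. It fell by 2.24 ± 0.35 on the log2 scale in KO tumours, to 21.1% of untreated KO colon (adjusted p = 5.86e-05), and by 1.70 ± 0.35 in WT tumours, to 30.9% of untreated WT colon (adjusted p = 0.000576). The difference between those 2 changes did not pass (-0.55 ± 0.48, adjusted p = 0.759). Relative to the summed TPM of the 10 epithelial markers, Pigr stood at 3.76%, 5.93% and 3.86% in KO tumours, against 16.8%, 15.4% and 8.72% in untreated KO colon. In WT tumours it stood at 5.93%, 6.01% and 4.66%, against 12%, 12.7% and 19.8% in untreated WT colon. The groups did not overlap, and on the log2 scale this ratio was lower by -1.57 in KO and -1.40 in WT (exact two-sided permutation p = 0.1 each, the smallest possible; n = 3). The fall of Pigr was thus also present relative to these epithelial markers. KO and WT did not differ detectably in this ratio in untreated colon (-0.14, exact p = 0.8), on day 7 (0.19, exact p = 0.6), on day 13 (0.19, exact p = 0.4) or in tumours (-0.32, exact p = 0.3). For day 7 this depended on the denominator: relative to the median of these markers Pigr was higher in KO, at the smallest possible exact p.

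**Figure D5:**
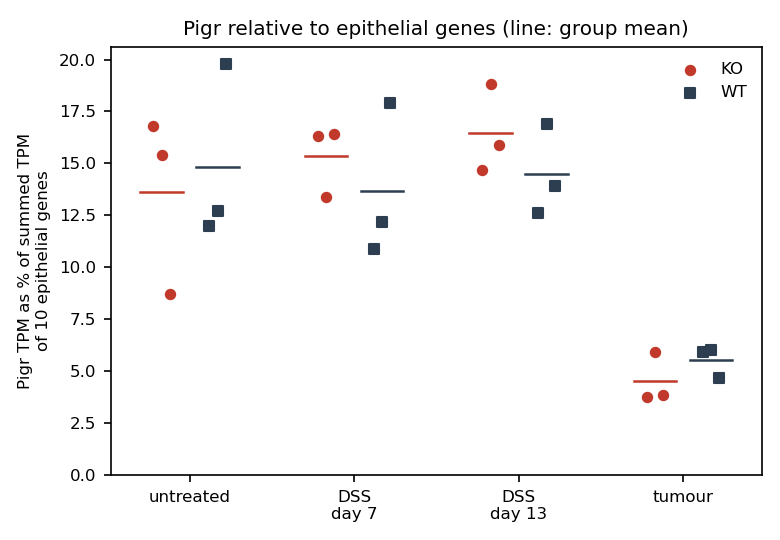
Pigr TPM as a percent of the summed TPM of 10 epithelial markers, by library, with KO left of WT in each condition; points are libraries and lines are group means (n = 3). The 6 tumours lie at 3.76% to 6.01% of the epithelial sum, below all 18 colon libraries.

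Genes of IgA transport and of the signals to plasma cells moved in both directions in tumours. Hnf4a, Ccl28 and Tnfsf13 fell in both genotypes, while Il6 and Tgfb1 rose in both. Hnf4a, an epithelial transcription factor gene, fell in KO (-1.75 ± 0.28, adjusted p = 6.02e-05) and in WT tumours (-1.24 ± 0.27, adjusted p = 0.00105). Of 15 tested genes of the list of Pigr regulators and epithelial transport, 3 rose and 3 fell in KO, where 26.4% of all genes rose and 23.5% fell, and 8 rose and 2 fell in WT, where 27.6% rose and 21.2% fell. Except for the 8 higher genes in WT, these counts are at or below the shares of all genes. Tnf, of the same list, averaged 27.3 TPM in KO and 33.0 TPM in WT tumours, against 1.44 and 0.80 TPM in untreated colon. Nfkb1 averaged 85.7 TPM in KO and 72.9 TPM in WT tumours, against 36.7 and 33.3 TPM in untreated colon. Ccl28, the chemokine of colonic epithelium that attracts IgA plasma cells, averaged 8.12 ± 6.16 TPM in KO and 10.2 ± 10.9 TPM in WT tumours, against 59.9 ± 25.5 TPM in KO and 78.3 ± 4.71 TPM in WT untreated colon. It fell by 3.26 ± 0.67 on the log2 scale in KO (adjusted p = 0.000648) and by 3.06 ± 0.67 in WT (adjusted p = 0.001). Tnfsf13, which encodes APRIL, a survival factor of plasma cells, fell by 1.47 ± 0.26 in KO (adjusted p = 0.000182) and by 1.27 ± 0.26 in WT (adjusted p = 0.000602). In the same list of IgA induction, homing and survival Il6, a cytokine of plasma cell survival, and Tgfb1, the switch factor for IgA, rose in both genotypes, with Tgfb1 at 1.81 in KO and 1.83 in WT. Counts of higher and lower genes of that list in tumours are not given here, so the named genes do not describe the whole list.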

How the data were processed

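Trizol RNA was made into Illumina libraries, per the labels' protocols. The submitters' processing notes name STAR 2.7.6a, RSEM 1.3.1 and the build GRCm38. The sources used here give no annotation release and no strand setting, so reads of a gene and of one that overlaps it, or lies antisense to it, may be mixed. The authors deposited an expected count and a TPM for each of 55487 genes in each library, as the file headers show. Expected counts are estimates where reads match several genes, and 26.0% to 28.3% of the non-zero values of a library were not whole; of the 216 values of the 9 genes, 4 were not. The deposited TPM, scaled to gene length by the authors' RSEM run, was used for levels and ratios.

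The 9 genes and the 10 gene lists (140 genes, 139 of them found) were chosen with earlier results of these data known. Symbols were found for 55141 identifiers, and positions are from GENCODE M21. Expected counts were rounded and tested with edgeR 4.0.16 in R 4.3.3 (quasi-likelihood F test, TMM, filter with a minimum count of 10 and a total of 15, robust) in 17 comparisons, with Benjamini-Hochberg adjustment over all genes and a threshold of 0.05: 18 colon libraries (18102 genes), 6 tumour libraries (17245) or all 24 (19056). Likeness used log2 CPM with a prior count of 2 (values centred on groups or without libraries: 0.1 CPM added). Named list genes were up to 4 per list with the smallest p; some genes that met this rule or the likeness rule are not reported here. Ratios were tested by exact permutation. The edgeR script was tested on simulated data. Alternatives were DESeq2 1.42.0, RLE factors, other filters, other fits, a Y-linked covariate and left-out libraries. Groups came from the labels, and replicates were numbered in accession order. Depth was 15.65 M to 28.07 M counts per library, and no replicate was a copy of another (chi-square per gene of at least 14.7).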

Additional observations from a re-analysis of the deposited data

How the results depend on the processing

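No paired analysis was possible because the libraries carry no replicate number of their own: they were numbered in accession order. Of 153 results (9 genes in 17 comparisons) 5 passed, and over 2474 values under the alternatives none reversed a call; 170 of the values changed sign without passing before or after, 15 no longer passed and 30 newly passed. Pigr passed in tumours in 13 of 13 settings in each genotype (log2 -2.70 to -1.94 in KO, -1.97 to -1.52 in WT). Ms4a1 passed in 6 of 13 settings in KO and in 11 of 13 in WT (adjusted p = 0.0805 without WT tumour replicate 2 and 0.0834 without replicate 3), and Cd79b in 7 of 13 in WT. With DESeq2 the number of the 9 genes called was 2 for KO against WT on day 7, 5 for the average over colon, 3 for KO day 7 and 2 for KO day 13 against untreated, where edgeR called 0 in each. With only the groups compared in the fit, KO day 7 against untreated gave 1 (Mzb1, adjusted p = 0.0363). For KO tumours against untreated colon the count was 1 without the filter, 1 with the Y-linked covariate and 1 without the 4 libraries whose sample numbers repeat. Leaving out 1 library at a time gave 0 to 1 for KO against WT on day 7 (1 without WT day 7 replicate 3), 0 to 5 for the average over colon (1 without untreated KO replicate 2, 5 without WT day 7 replicate 3, 3 without WT day 13 replicate 2), 0 to 1 for KO day 7 against untreated (Jchain, adjusted p = 0.0423, without untreated KO replicate 2), 1 to 4 for KO tumours (1 without untreated KO replicate 2, KO tumour replicate 1 or 3, 4 without untreated KO replicate 3) and 1 to 3 for WT tumours (1 without WT tumour replicate 2 or 3). The cause was not tested. Relative to the median instead of the sum of the epithelial markers, the log2 Pigr ratio of KO to WT on day 7 was 0.67 (exact p = 0.1, the smallest that 3 against 3 libraries allow). Over all genes edgeR called 1 on day 7, 455 on day 13 and 877 for the average between KO and WT, and DESeq2 2477, 1322 and 2477.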
